A study of Drosophila melanogaster with 8 samples.

Results

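The enzymes that make sugar anew and the genes that make, carry and split trehalose were followed in the heads of HEXIM knockdown flies. All 7 genes of this set, Pepck2, Pepck1, fbp, G6P, Tps1, Treh and Tret1-1, were taken by gene symbol, and each is read by 1 probe set that the array annotation assigns to that gene alone, out of 18769 probe sets tested, which name 11981 genes. By their names, the probe sets of fbp and Treh may also read transcripts of another gene, and those of Pepck1 and Tret1-1 read several transcripts of 1 gene. RNA came from pooled entire heads of adult flies, reared at 29°C per the labels, which give neither age nor sex. The paper gives W118 as the wild type, and the sample titles name a Wt strain and a UAS-Hexim-RNAi strain. In 4 samples the flies were wild type (WT), and in the other 4 they carried a UAS hairpin transgene against Hexim driven by GMR-Gal4 (HEXIM knockdown). HEXIM binds and holds back P-TEFb, the kinase that releases paused RNA polymerase. The GMR driver acts in differentiating cells of the eye, whereas the RNA of an entire head also comes from brain, fat body, muscle and cuticle. The WT flies carry neither driver nor hairpin, so that the knockdown, the transgenes and any difference of strain background cannot be told apart. The labels describe each array as a biological replicate.

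Trehalose is the main sugar of insect blood. It is built in the fat body from glucose phosphates by trehalose phosphate synthase, carried across membranes by Tret1 transporters, which in Drosophila also stand in the glial sheath of the brain, and split back into glucose by trehalase. Gluconeogenesis refills glucose phosphates from amino acids and other small carbon compounds. It runs the glycolytic steps backwards and goes around the irreversible ones with its own enzymes, of which phosphoenolpyruvate carboxykinase (PEPCK), fructose bisphosphatase and glucose phosphatase are part of this set.

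Affymetrix arrays give 1 log2 level for each probe set, so that a difference of 1 stands for a doubling. Levels of different genes are not compared with each other here, because probe sets differ in their response. The arrays correlated at 0.974 to 0.997 with each other. WT replicates 1 and 3 and HEXIM knockdown replicate 4 stood apart on the first principal component, with 51.3% of the variance, and had the lowest middle minus 3' signal of the GAPDH and Act5C control transcripts (-3.80 to -3.40, against -2.64 to -2.24 in the other 5), a sign of RNA integrity. Hexim itself lay at 7.79 to 8.14 in WT and at 7.52 to 7.77 in HEXIM knockdown heads (a change of -0.33, SE 0.10, limma, adjusted p = 0.418). Markers of photoreceptors and neurons were present in every array, with mean levels of 11.88 to 12.31 over 8 photoreceptor genes and of 10.12 to 10.29 over 8 neuron genes. None of them was called. Of the photoreceptor genes 1 was positive and 7 negative, with a median log2 change of -0.10. The groups were apart for trpl alone of them, at -0.29 (SE 0.12, limma, adjusted p = 0.628). ninaE, ninaC and norpA were not measured. Of the neuron genes 5 were positive and 3 negative, with a median of 0.01. Of the 8 measured muscle markers 1 was positive and 7 were negative, with a median of -0.15. TpnC4 alone of them was called (-1.24, SE 0.14, lower in HEXIM knockdown heads), and 8 of 17 processing alternatives ended that call. None of the 9 haemocyte markers was called, with 6 positive, 3 negative and a median of 0.11. Among them PPO2 and PPO1, prophenoloxidase genes, had 0.67 (SE 0.13, limma, adjusted p = 0.136, groups apart, called with array weights) and 0.41 (SE 0.24). The fit with array weights called 507 probe sets over the whole array, against 48 as reported. It rested largely on HEXIM knockdown replicate 2, with a weight of 9.03 against 0.27 to 0.87 in the other HEXIM knockdown arrays. The groups were also apart for crq, which was lower in HEXIM knockdown heads (-0.22, SE 0.07, limma, adjusted p = 0.491). NimC1 and eater were negative too, at -0.15 and -0.08.

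One gene of the set, Pepck2, was higher in HEXIM knockdown heads, and the other 6 did not pass the test. Pepck2 encodes a PEPCK, the enzyme that turns oxaloacetate into phosphoenolpyruvate and so opens gluconeogenesis. Its log2 level was 6.96, 6.53, 6.66 and 6.73 in WT replicates 1 to 4, and 9.87, 8.90, 8.34 and 8.32 in HEXIM knockdown replicates 1 to 4. The lowest HEXIM knockdown array thus lay 1.37 above the highest WT array, and the spread was wider in HEXIM knockdown (SD 0.73, n = 4) than in WT heads (SD 0.18, n = 4). The change on the log2 scale was 2.14 (SE 0.32, limma, adjusted p = 0.0493), which is 4.40-fold, with a 95% interval of 2.65-fold to 7.31-fold. It was number 15 of all probe sets by the size of the rise, and 0.0852% of them rose by at least 2 on the log2 scale. An exact two-sided permutation test of Pepck2 alone gave p = 0.0286, the smallest that 4 arrays against 4 allow. Every probe set whose groups do not overlap gets this p, so that it adds nothing to the gap given above. Of all probe sets, 0.256% passed the limma threshold in either direction and 0.144% passed it upwards and 0.112% downwards. Groups did not overlap for 5.35% of all probe sets, with 1.99% higher and 3.37% lower in HEXIM knockdown heads. The set therefore held 1 call and 1 gene with groups apart among 7 genes.

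The call of Pepck2 stood close to the threshold. It ended on leaving out any of the 4 WT replicates or HEXIM knockdown replicate 2 or 3 (adjusted p of 0.0901 to 0.212), while the log2 fold change stayed between 1.80 and 2.32 whichever array was left out. Without HEXIM knockdown replicate 1, the array with the highest level, the fold change was smallest and the adjusted p was 0.0125.

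**Figure D1:**
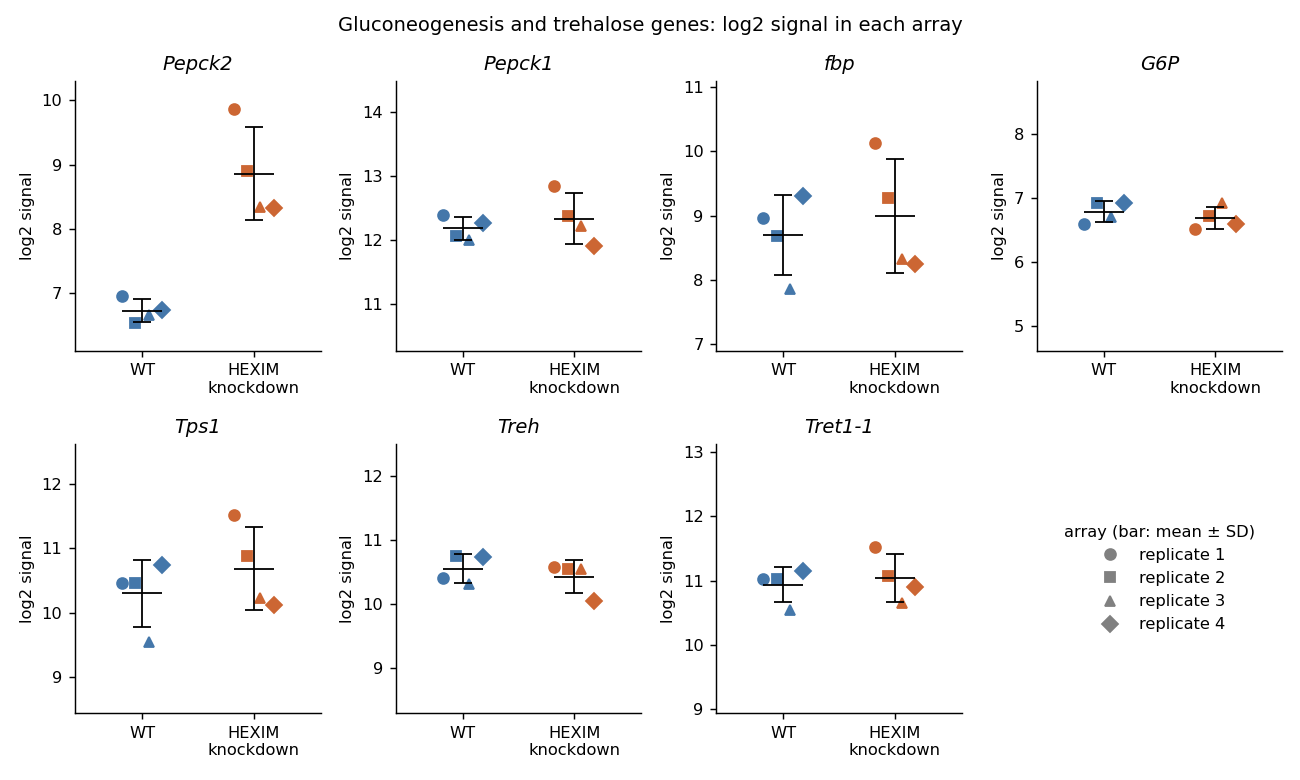
Log2 signal of the 7 genes in each array (y axis, 4.2 log2 units in every panel) by genotype (x axis), with blue for WT, orange for HEXIM knockdown, 1 symbol for each replicate number and bars for the mean ± SD of 4 arrays. Only the Pepck2 panel shows groups that do not overlap, with WT at 6.53 to 6.96 and HEXIM knockdown at 8.32 to 9.87.

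Pepck1 encodes the second PEPCK of the fly and lies close to Pepck2 in the genome, with 1 gene between them in the RefSeq order. Its log2 level was 12.39, 12.06, 12.01 and 12.27 in the WT arrays and 12.85, 12.37, 12.22 and 11.91 in the HEXIM knockdown arrays. The groups overlapped, since HEXIM knockdown replicate 4 was the lowest of all arrays and replicate 1 the highest. The change on the log2 scale was 0.15 (SE 0.19, limma, adjusted p = 1.00), with a 95% interval of -0.29 to 0.59 on the log2 scale. The paralogs were also compared within each array, as the level of Pepck2 minus that of Pepck1. This difference changed by 1.99 (SE 0.19) on the log2 scale between the genotypes and did not overlap between them (exact two-sided permutation test, p = 0.0286). Pepck2 was compared with its rise already known, so this is no separate test of that rise.

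fbp encodes fructose bisphosphatase, which goes around the phosphofructokinase step, and it varied most within the genotypes. Its log2 level was 8.96, 8.68, 7.86 and 9.31 in WT, and 10.13, 9.28, 8.32 and 8.25 in HEXIM knockdown heads. HEXIM knockdown replicates 2, 3 and 4 lay within the range of the WT arrays, and replicate 1 lay above it. The change on the log2 scale was 0.30 (SE 0.46, limma, adjusted p = 1.00), with a 95% interval of 0.593-fold to 2.55-fold.

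G6P encodes the phosphatase that frees glucose from its phosphate, the last step of gluconeogenesis. Its log2 level was 6.59, 6.91, 6.71 and 6.92 in WT, and 6.51, 6.72, 6.92 and 6.59 in HEXIM knockdown heads. These values covered nearly the same range in both genotypes, with a log2 change of -0.10 (SE 0.12, limma, adjusted p = 1.00) and a 95% interval of 0.775-fold to 1.13-fold. A change of G6P as large as that of Pepck2 lies outside this interval.

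**Figure D2:**
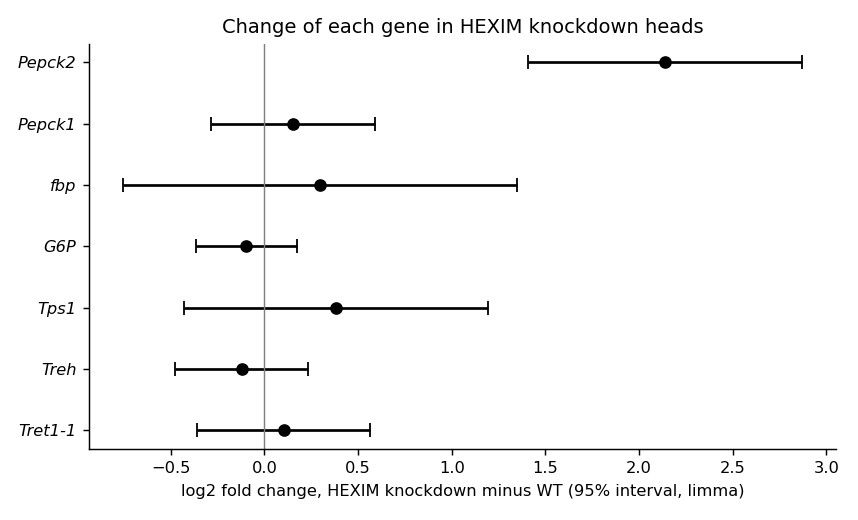
Log2 fold change (x axis, HEXIM knockdown minus WT) of each gene (y axis), with points for the limma estimate and bars for its 95% interval over 4 against 4 arrays. The interval of Pepck2, from 1.41 to 2.87, lies above 0, and those of the other 6 genes include 0.

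None of the trehalose genes passed the test, and the groups overlapped for each of them. Tps1, the trehalose phosphate synthase gene, had log2 levels of 10.46, 10.46, 9.55 and 10.74 in WT, and of 11.51, 10.89, 10.22 and 10.12 in HEXIM knockdown heads. Replicates 1 and 2 of HEXIM knockdown lay above all WT arrays and replicates 3 and 4 below all but 1 of them. The log2 change of 0.38 (SE 0.36, limma, adjusted p = 1.00) had a 95% interval of 0.743-fold to 2.29-fold. It was 0.11 without HEXIM knockdown replicate 1 and 0.13 without WT replicate 3. Tret1-1, a trehalose transporter gene, had log2 levels of 11.02, 11.03, 10.54 and 11.16 in WT, and of 11.52, 11.08, 10.65 and 10.90 in HEXIM knockdown heads, with a log2 change of 0.10 (SE 0.20, limma, adjusted p = 1.00). Here too the groups overlapped, with the highest value in HEXIM knockdown replicate 1. Treh, the trehalase gene, had log2 levels of 10.41, 10.75, 10.31 and 10.73 in WT, and of 10.58, 10.56, 10.54 and 10.05 in HEXIM knockdown heads, with a log2 change of -0.12 (SE 0.16, limma, adjusted p = 1.00). Treh thus lay close together in HEXIM knockdown replicates 1, 2 and 3 and lowest of all arrays in replicate 4, one of those that stood apart.

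Over the set, the change was above 0 for 5 genes and below 0 for 2, with a median of 0.15. Over all probe sets 44.6% were above 0, and the median was -0.02. Without HEXIM knockdown replicate 1, Pepck1 (-0.019), fbp (-0.081) and Tret1-1 (-0.060) were below 0 as well, while Pepck2 and Tps1 stayed above it. Set against the change of each other gene within the same array, the rise of Pepck2 was larger by 1.75 (Tps1) to 2.26 (Treh) on the log2 scale, with standard errors of 0.19 to 0.45. In each of these 6 comparisons the genotypes did not overlap (exact two-sided permutation test, p = 0.0286, also after Benjamini-Hochberg adjustment over the 6). All 6 share the same Pepck2 values and are not independent of each other. Pepck2 was set against the others with its rise known, so these p-values give that rise no separate support.

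The arrays of 1 genotype differed from each other in a way that most of the set shared. HEXIM knockdown replicate 1 was the highest HEXIM knockdown array for 6 of the 7 genes, and the lowest for G6P. It lay 1.14 above the mean of its group for fbp, 1.01 for Pepck2, 0.83 for Tps1, 0.51 for Pepck1 and 0.49 for Tret1-1. WT replicate 3 was the lowest WT array for 5 of the 7 genes, with deviations of -0.84 for fbp, -0.76 for Tps1 and -0.40 for Tret1-1. Pepck2 and G6P were the exceptions, at -0.06 and -0.08. Among the WT arrays the level spread over 0.33 to 0.44 for G6P, Pepck1, Pepck2 and Treh, over 0.62 for Tret1-1, over 1.20 for Tps1 and over 1.45 for fbp.

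The mean levels of the fat body and of the female head markers moved with this pattern, but not every fat body marker did. The mean level of the 10 measured of 12 fat body markers was lowest in WT replicate 3, at 9.56, with the other WT arrays at 10.75 to 11.07, and it ranged from 10.81 to 11.64 in HEXIM knockdown heads. The 4 female head markers (the yolk protein genes Yp1, Yp2 and Yp3, and fit), which also stand in the fat body list, averaged 9.21 in WT replicate 3, 11.77 to 12.22 in the other WT arrays, and 11.31 to 12.91 in HEXIM knockdown heads, where replicate 1 was highest. No fat body marker passed the test, and 9 of the 10 had a positive log2 fold change, with a median of 0.82 over the 10. Fbp1 had 1.17 (SE 0.28, limma, adjusted p = 0.243) with groups that did not overlap, and Fbp2 had 1.05 (SE 0.30), and both passed the threshold with array weights. Fbp1 and Fbp2 went against the pattern of the arrays. They were highest of the WT arrays in replicate 3 (8.48 and 9.78) and lowest of the HEXIM knockdown arrays in replicate 1 (8.54 and 9.54). The other measured fat body markers, the female head markers among them, were lowest of WT and highest of HEXIM knockdown in these arrays. In RNA of entire heads, fewer cells of a type and less RNA in each cell cannot be told apart. The mean level of the fat body markers was also taken as a covariate, an alternative chosen after seeing the data. The log2 fold change was then 1.89 for Pepck2 (SE 0.37, limma, adjusted p = 0.219), against 2.14 without the covariate. It was -0.06 (SE 0.20) for Pepck1, -0.43 (SE 0.34) for fbp, -0.22 (SE 0.22) for Tps1 and -0.20 (SE 0.16) for Tret1-1. With the female head markers as a covariate it was 1.99 for Pepck2 (limma, adjusted p = 0.118). The rise of Pepck2 kept its sign and lost its call in both fits. The smaller positive changes of Pepck1, fbp, Tps1 and Tret1-1 turned in sign with the fat body markers, and none of these was called.

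**Figure D3:**
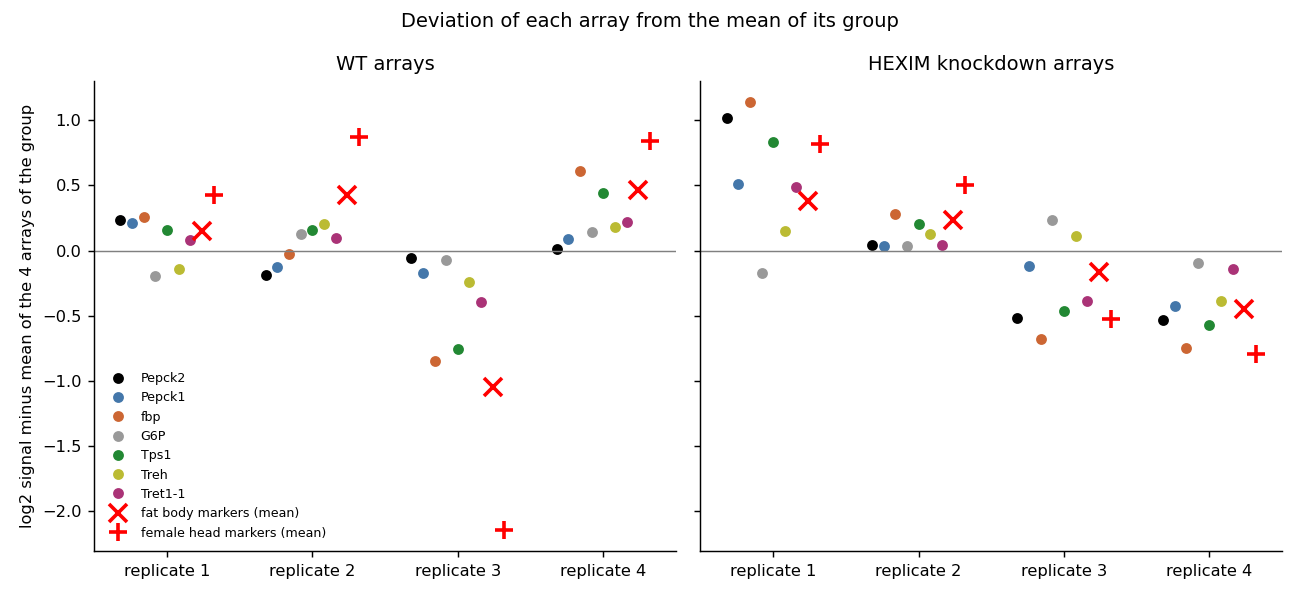
Log2 signal of each array minus the mean of its group of 4 (y axis), for the WT arrays (left) and the HEXIM knockdown arrays (right), with dots for the 7 genes and red marks for the mean levels of the fat body and female head markers. WT replicate 3 lies low for fbp (-0.84) and for both marker lists and is not the lowest WT array for Pepck2 (-0.06) and G6P (-0.08), and HEXIM knockdown replicate 1 lies high for all genes but G6P.

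Genes with a like pattern over the 8 arrays were taken by the root mean square difference of their log2 levels, each centred on its own mean, for the 3 members that ranged over at least 1 on the log2 scale. Arrays of both genotypes entered this match. A change near that of the member, and a like order of arrays, were thus part of the choice. The values below describe the matched genes and give no separate support to the member. Nearest to Pepck2 were CG9733 (difference of 0.30), CG14567 (0.45) and Nmdmc (0.47), an enzyme gene of mitochondrial folate metabolism. Their log2 fold changes were 1.79 (SE 0.39), 1.75 (SE 0.54) and 1.48 (SE 0.48), and none passed the test (adjusted p of 0.193 to 0.455 from limma), whereas all 3 did with array weights (0.00376 to 0.0328). CG9733 had log2 levels of 6.46 to 7.42 in WT and of 7.88 to 9.77 in HEXIM knockdown heads, again highest in replicate 1. Nearest to fbp were Sodh1, a sorbitol dehydrogenase gene, LManII, of the lysosomal mannosidases, and Tmlh, of carnitine synthesis, each at a difference of 0.15. Nearest to Tps1 were P5cr-2, of proline synthesis (0.09), the hexokinase gene Hex-C (0.11) and Nplp2, a neuropeptide-like precursor gene (0.11). Their log2 fold changes ranged from 0.20 for Nplp2 to 0.50 for Sodh1.

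The genes around Pepck2 were read in the gene order of RefSeq (Release 6 plus ISO1 MT), a look taken after the values were seen. Of the 10 protein-coding genes on either side, 16 had a probe set of their own. None of the 16 passed the test, against 0.256% of all probe sets, and 1 had groups apart, against 5.35% of all probe sets. That gene was GstE11, a glutathione transferase gene 2 genes away from Pepck2. It had log2 levels of 6.45 to 6.61 in WT and of 8.26, 7.52, 7.43 and 6.999 in HEXIM knockdown heads. Its groups did not overlap, with replicate 1 highest in HEXIM knockdown as for Pepck2. The log2 change of GstE11 was 1.05 (SE 0.23, limma, adjusted p = 0.196), and it passed the threshold with array weights (1.01, adjusted p = 0.00753). CG43066, which lies between GstE11 and Pepck2, had a log2 change of 0.12 (SE 0.09), and the remaining measured neighbours, Pepck1 among them, lay between -0.16 and 0.41. Around the other members, measured neighbours apart from Pepck2 and GstE11 lay between -0.52 and 0.55.

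**Figure D4:**
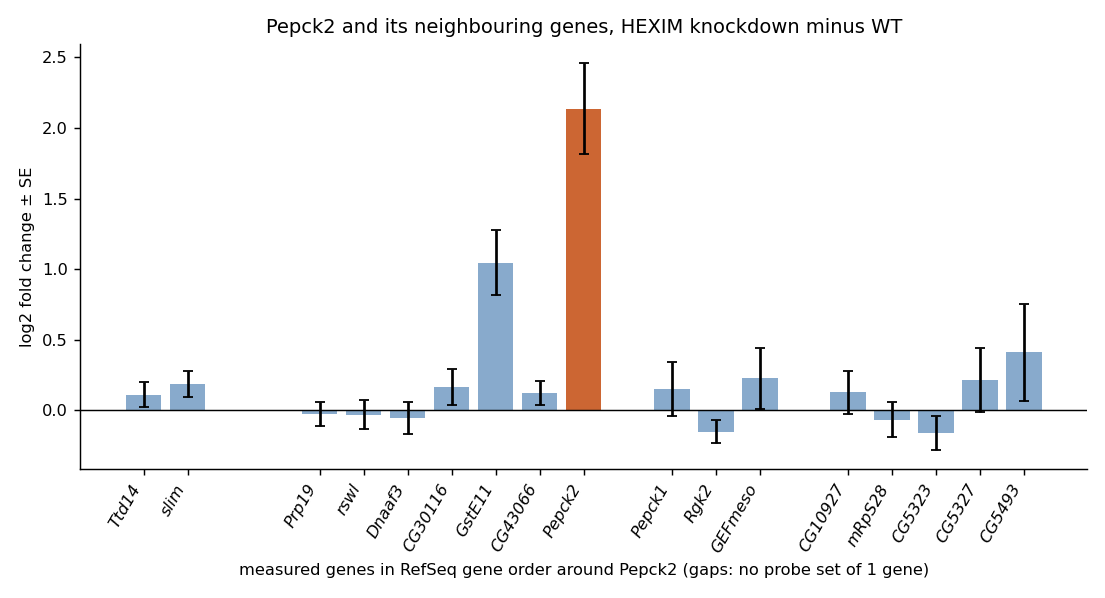
Log2 fold change ± SE (y axis, HEXIM knockdown minus WT) of Pepck2 (orange) and of its 16 measured neighbours (blue) in RefSeq gene order (x axis, not to genomic scale). GstE11, at 1.05, stands out among the neighbours, and the genes next to it and Pepck1 lie near 0.

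The wider pathway was read through 8 lists with 82 genes, of which 68 were measured, each by its brightest probe set. None of the 68 passed the test in either direction, against 0.256% of all probe sets. Their log2 fold changes had a median of 0.05, with 38 positive and 30 negative. Groups were apart for 2 genes (2.94%, against 5.35% of all probe sets), which were named after their values were seen. These were Mondo, the sugar-sensing transcription factor gene, with 0.28 (SE 0.09, limma, adjusted p = 0.392), and REPTOR-BP, a partner in the transcriptional response to low TORC1 activity, with -0.23 (SE 0.08, adjusted p = 0.526).

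Of 8 measured genes whose enzymes feed carbon to PEPCK or move it between cell compartments, none passed the test in its brightest probe set. The change was above 0 for 5 of them, and the median was 0.19. Got1 and Got2, aminotransferases that make or use oxaloacetate, had 0.49 (SE 0.25, 95% interval -0.09 to 1.06) and 0.26 (SE 0.19), and the malic enzyme gene Men had 0.20 (SE 0.25). Without HEXIM knockdown replicate 1, Got1 had 0.24. PCB, pyruvate carboxylase, which makes the oxaloacetate used by PEPCK, had -0.07 (SE 0.16). Gpdh1, of the glycerol phosphate shuttle, had -0.12 (SE 0.11) in its brightest probe set, and 1 of its 3 other probe sets passed the test, at -0.69 (SE 0.10, limma, adjusted p = 0.0450), a call that ended on leaving out any 1 array.

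Of the 7 measured genes of glycolytic enzymes that work in both directions, 6 had a negative log2 fold change, and all lay between -0.09 and 0.03, with Tpi, Eno and Ald1 at -0.09, -0.08 and -0.07 and standard errors of 0.08 to 0.14. Among the 4 measured genes of the irreversible glycolytic steps, Pfrx, whose enzyme makes an activator of phosphofructokinase, had 0.55 (SE 0.16, limma, adjusted p = 0.375). The hexokinase genes Hex-C and Hex-A had 0.48 (SE 0.38) and 0.04 (SE 0.15). Of the 7 measured glycogen genes, 6 were positive with a median of 0.20, led by UGP with 0.39 (SE 0.21), the branching enzyme gene AGBE with 0.37 (SE 0.29) and the phosphoglucomutase gene Pgm1 with 0.21 (SE 0.37).

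The paralogs on the trehalose side did not pass the test either, apart from CG5171 with array weights (0.45, adjusted p = 0.0224). CG5171 and CG5177, annotated in fly databases as trehalose phosphatases, had log2 fold changes of 0.30 (SE 0.11, limma, adjusted p = 0.567) and -0.09 (SE 0.17). CG6262, a paralog of trehalase, lay at 3.39 to 3.97 in all arrays. The list of sugar transporters, which also holds the transcription factor gene Glut4EF, had a median of -0.02 over its 15 measured genes. In this list sut1 and sut4 were at -0.25 and sut2 at -0.18 (SE of 0.14 to 0.37). Tret1-2, the paralog of Tret1-1, lay at 3.81 to 4.23 in all arrays. Glia markers, since Tret1-1 is used by surface glia, had a mean level of 9.98 to 10.01 in WT and of 9.77 to 9.88 in HEXIM knockdown heads. Of the 8 measured glia markers 3 were positive (nrv2 with 0.15, loco with 0.05 and alrm with 0.04) and 5 negative, with a median of -0.16. The lowest were moody, wrapper (-0.41, SE 0.14) and Mdr65 (-0.30, SE 0.13). The gene moody, of that glial sheath, had a log2 change of -0.60 (SE 0.10, limma, adjusted p = 0.0730), which passed the threshold with array weights, median centring or the middle minus 3' covariate.

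Genes that set the hormonal and nutrient state were spread around 0. Of 18 measured genes, 12 were positive, with a median of 0.07. Lst, encoding limostatin, which lowers insulin release, had 0.61 (SE 0.37), the insulin-like peptide gene Ilp2 had 0.42 (SE 0.20) and foxo, whose product acts when insulin signalling is low, had 0.31 (SE 0.45). The adipokinetic hormone gene Akh, the fly counterpart of glucagon, and its receptor gene AkhR had -0.06 (SE 0.10) and -0.23 (SE 0.20). Of 7 measured genes that respond to fasting, 5 were positive with a median of 0.42. tobi, a glucosidase gene known as a target of insulin and Akh signalling, had 1.02 (SE 0.76), and the lipase genes bmm and Lip4 had 0.47 (SE 0.23) and 0.44 (SE 0.31). tobi ranged from 5.55 in WT replicate 3 to 9.88 in HEXIM knockdown replicate 1, the same arrays that were extreme for fbp and Tps1 among those of their genotypes. Its change was 0.42 without WT replicate 3, 0.52 without HEXIM knockdown replicate 1 and 0.18 without the 3 arrays that stood apart. The change was 0.33 for Lst without HEXIM knockdown replicate 1, and 0.021 for foxo without WT replicate 1.

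**Figure D5:**
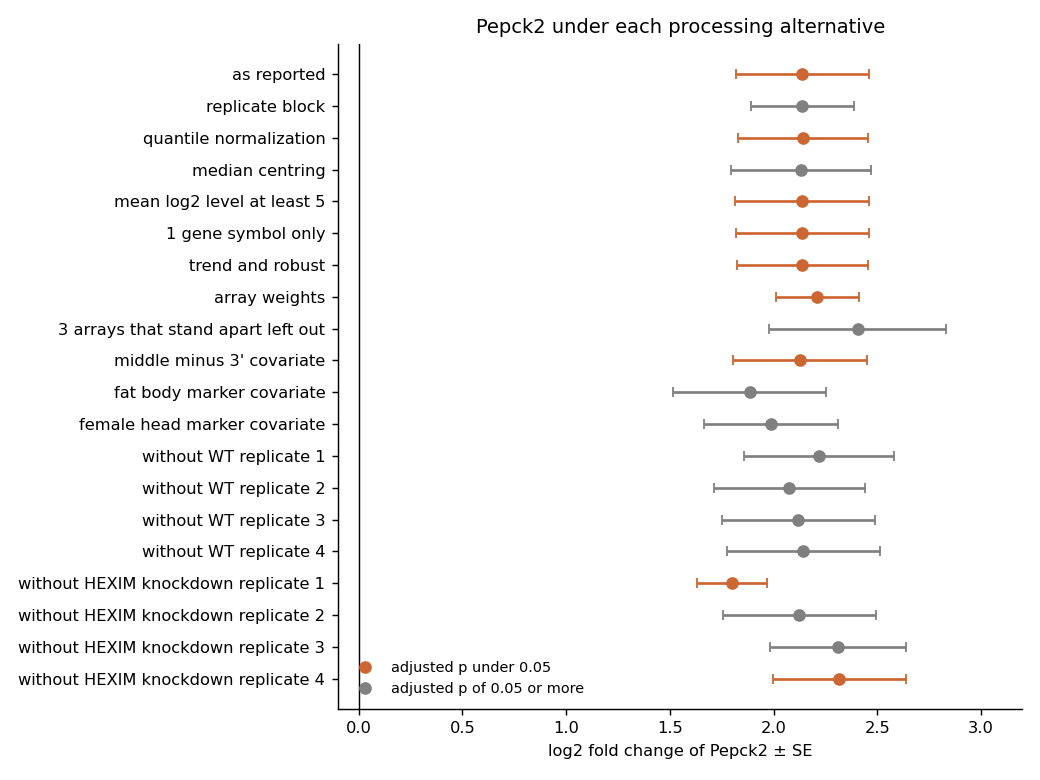
Log2 fold change ± SE of Pepck2 (x axis) as reported and under each of 19 processing alternatives (y axis), in orange where the adjusted p from limma was under 0.05 and in grey otherwise. All estimates lie between 1.80 and 2.41, and 11 of the 19 alternatives ended the call.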

How the data were processed

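The deposited values are log2 signals per probe set of 8 Affymetrix Drosophila_2 arrays, normalized by the authors. The labels name RMA and Affymetrix Expression Console, and the methods of the paper name GCRMA, so that the algorithm is not settled. Background treatment differs between them and mainly affects dim probe sets. The values were used as deposited, with array medians of 5.43 to 5.57. Precision is limited by how few arrays there are.

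After removal of 183 control probe sets from 18952, the remaining 18769 were fitted with limma 3.58.1 in R 4.3.3 (HEXIM knockdown minus WT, no block), with Benjamini-Hochberg adjustment over all of them and a threshold of 0.05. The annotation gave 1 gene symbol to 13646 probe sets, several to 402 and none to 4721. Exact permutation tests, tables and figures were made with Python 3.11.15, scipy 1.17.1, numpy 2.4.6, matplotlib 3.10.9 and pandas 2.3.3. The fit was tested on simulated data.

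The members, the gene lists and the tests were chosen with earlier results of these data known. Besides the members, genes were named if they passed the threshold or had the 3 largest changes of a list, or by likeness to a member. For each value 17 alternatives were planned, and 2, the marker covariates, were added after seeing the data. GstE11, Mondo, REPTOR-BP, crq, NimC1, eater, PCB, Akh, AkhR and Tret1-2 were named after their values were seen, the last 4 for their roles. No sequences were printed, since none of the reference tables used here held them.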

Additional observations from a re-analysis of the deposited data

Results flagged for a closer look

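Each result was looked at for a single array that lay apart within its genotype, and 6 of 158 groups of 4 held one, where 1 in 20, or 7.9, would by chance. For Treh it was HEXIM knockdown replicate 4, at 10.05, with 10.54 to 10.58 in the remaining arrays. The same array was low for the genes of hormonal and nutrient control, with a mean level of 7.81 against 8.01 to 8.04. WT replicate 3 was low for the female head markers, at a mean of 9.21 against 11.77 to 12.22, for Yp2, at 9.49 against 12.19 to 12.62, and for CG14567, at 6.01 against 6.48 to 6.58. Arr1, a photoreceptor arrestin gene, was high in HEXIM knockdown replicate 1, at 13.51 against 13.27 to 13.31.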

How the results depend on the processing

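The rise of Pepck2 lay between 1.80 and 2.41 on the log2 scale under all 19 alternatives, and 11 of them ended its call. These were the replicate block (adjusted p = 0.195 from limma), median centring (0.0654), leaving out the 3 arrays that stood apart (0.254), the fat body (0.219) and female head (0.118) marker covariates, and leaving out any WT array or HEXIM knockdown replicate 2 or 3 (0.0901 to 0.212). The differences between Pepck2 and each other member kept their sign throughout. Whether array numbers pair the samples is not settled. The deviations of same-numbered arrays correlated at -0.72 to 0.57, but they also carry the spread of the 3 arrays that stood apart. The replicate block is given only as an alternative. The small number of arrays limits what could be called.

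The number of called members was 1 as reported, 0 with the replicate block, median centring, either marker covariate or without the 3 arrays that stood apart, and 0 to 1 on leaving out an array. Over the whole array 48 probe sets were called, against 1 with the replicate block, 3 without the 3 arrays that stood apart, 18 and 22 with the fat body and female head marker covariates, 104 with the middle minus 3' covariate, 507 with array weights, and 10 to 48 on leaving out an array.

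With array weights, which gave HEXIM knockdown replicate 2 a weight of 9.03, 12 single genes gained a call: Hexim, CG5171, Fbp1, Fbp2, moody, wrapper, Mdr65, PPO2, CG9733, CG14567, Nmdmc and GstE11. The change ranged, on leaving out an array, from 0.11 to 0.57 for Tps1, 0.42 to 1.50 for tobi, 0.33 to 0.91 for Lst, 0.021 to 0.65 for foxo and 0.24 to 0.62 for Got1, with no turn of sign.

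Signs turned for genes that had not passed the test. With the fat body markers as a covariate the change was -0.059 for Pepck1, -0.43 for fbp, -0.22 for Tps1 and -0.20 for Tret1-1, and with the female head markers it was -0.12 for fbp and -0.073 for Tret1-1. Without the 3 arrays that stood apart it was -0.0083 for Tret1-1, -0.11 for Hex-A, 0.039 for sut1, -0.083 for Appl and -0.064 for fit. On leaving out an array, the change ranged from -0.019 to 0.29 for Pepck1, -0.081 to 0.55 for fbp, -0.20 to 0.0082 for Treh, -0.060 to 0.23 for Tret1-1, -0.040 to 0.37 for Men, -0.15 to 0.022 for Ald1, -0.059 to 0.15 for Hex-A, -0.081 to 0.45 for Pgm1, -0.18 to 0.024 for CG5177, -0.053 to 0.38 for srp, -0.054 to 0.17 for Appl, -0.20 to 1.44 for fit, -0.16 to 0.53 for LManII and -0.044 to 0.39 for Nplp2. The cause was not tested.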
